A study of Mus musculus with 22 samples.

Results

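Chemokines are small secreted proteins that steer the movement of leukocytes, and each acts through G protein-coupled receptors on the responding cell. The transcripts of 40 genes of this system, 27 ligands and 13 receptors, were described in pancreatic dendritic cells (DCs) of NOD and C57BL/6 mice. They were chosen by name, as the platform annotation gives it, and they stand among 18193 genes with a probe set that names them alone. Each gene was read from 1 probe set, the one with the highest mean over all 22 arrays.

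The cells were CD11c+CD8α- DCs sorted after magnetic enrichment of CD45+ cells from digested pancreas of 5 week old female mice, 10 pancreases to a pool. The 6 groups were NOD LPS (4 arrays), C57BL/6 LPS (3), NOD PBS (4), C57BL/6 PBS (4), NOD steady state (3) and C57BL/6 steady state (4), where LPS and PBS stand for 18 h of culture with lipopolysaccharide or buffer. NOD mice develop autoimmune diabetes spontaneously, and C57BL/6 mice, an unrelated strain, served as the control. No transgene or deletion was involved. Steady state cells were lysed without culture. The sources differ on their origin: the series' design text calls the culture another experiment, while the methods describe lysed and cultured cells as parts of the same sorts, so whether the culture comparison also holds a difference between experiments was not tested. Each pool holds whatever other cells passed the CD11c+CD8α- gate.

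In an inflamed tissue the inflammatory chemokines are induced through Toll-like receptors and cytokines and call in neutrophils, monocytes and effector T cells, whereas homeostatic chemokines place cells in resting tissue. DCs are both a source and a target: immature DCs carry receptors for inflammatory ligands, and maturing DCs exchange them for Ccr7, the receptor that leads them to the lymph node. In the NOD pancreas, accumulation of DCs and macrophages around the islets is an early stage of the disease.

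The values were deposited on the log2 scale after RMA, so a difference of 1 stands for a doubling, and levels of different genes are not compared with each other. Array medians lay between 7.63 and 7.68 in all 6 groups. Of the 9 CD8α- DC markers, none fell below the lower quartile of the array on every array of a group, and their mean was 11.56 to 11.65 at steady state in NOD and 11.69 to 11.82 in C57BL/6. Transcripts of other cells were present too: the 4 measured acinar enzymes averaged 12.49 to 13.66 on NOD and 12.93 to 13.50 on C57BL/6 steady state arrays, and the 8 measured NK and innate lymphoid markers averaged 8.36 to 8.63 on NOD and 9.42 to 9.74 on C57BL/6 steady state arrays. The 10 macrophage markers averaged 12.58 to 12.87 on NOD and 12.97 to 13.15 on C57BL/6 steady state arrays. No measured macrophage, monocyte, neutrophil, T cell or B cell marker fell below the lower quartile on every array of a group. In sorted bulk samples, fewer cells of a type and less RNA per cell cannot be told apart.

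Cxcl1, Cxcl2 and Cxcl3, neighbouring genes whose products attract neutrophils, and Cxcl10, which attracts T and NK cells, were among the genes with the largest differences, and the 220 bases that precede their RefSeq start are shown because all 4 hold letters of the NF-κB type within that stretch. Sequences run 5′ to 3′ on the gene's own strand in GRCm38.p6 and end at the base before the start. Capitals mark matches, on either strand, to GGGANNNNCC, as bound by NF-κB, and to GAAANNGAAA, the core of an interferon response element, and matches that overlap run together.
Cxcl1, + strand, chr5:90891025-90891244: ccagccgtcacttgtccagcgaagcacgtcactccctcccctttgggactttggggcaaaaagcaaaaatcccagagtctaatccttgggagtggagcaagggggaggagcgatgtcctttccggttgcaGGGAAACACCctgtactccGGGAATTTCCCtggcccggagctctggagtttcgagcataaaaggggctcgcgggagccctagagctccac
Cxcl2, + strand, chr5:90903679-90903898: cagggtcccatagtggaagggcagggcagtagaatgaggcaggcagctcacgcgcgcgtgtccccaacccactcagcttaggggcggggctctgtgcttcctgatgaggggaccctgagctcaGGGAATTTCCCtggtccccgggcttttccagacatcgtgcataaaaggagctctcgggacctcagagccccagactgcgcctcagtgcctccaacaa
Cxcl3, + strand, chr5:90785881-90786100: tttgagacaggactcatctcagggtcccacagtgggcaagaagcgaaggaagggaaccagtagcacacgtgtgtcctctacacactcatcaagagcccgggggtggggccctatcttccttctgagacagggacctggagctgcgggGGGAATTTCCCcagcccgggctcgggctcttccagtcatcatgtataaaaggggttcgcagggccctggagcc
Cxcl10, - strand, chr5:92348890-92349109: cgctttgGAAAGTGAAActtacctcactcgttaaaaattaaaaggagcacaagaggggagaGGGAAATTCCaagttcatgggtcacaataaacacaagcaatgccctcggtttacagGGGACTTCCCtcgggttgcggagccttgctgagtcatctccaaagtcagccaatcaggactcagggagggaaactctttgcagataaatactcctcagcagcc

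The Cxcl1, Cxcl2 and Cxcl3 stretches share a capital run of which the first strand and its complement both match, at bases 71 to 61 before the start in Cxcl1, 97 to 87 in Cxcl2 and 73 to 63 in Cxcl3. Cxcl1 holds a further match at 90 to 81. Cxcl10 holds 2 NF-κB type matches, at 159 to 150 and 103 to 94, and the single interferon response match shown, at 213 to 204. Of the 29 members with a promoter entry, 12 had GGGANNNNCC within 250 bases before the start, beside 19.7% of 27025 genes, and 2 (Cxcl10 and Cxcl14) had GAAANNGAAA, beside 3.46%. These are matches of letters, with the motifs chosen after the sequences were seen, and no binding was measured here.

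The strain comparison asked how NOD DCs differ from C57BL/6 DCs, and it was made within each condition. At steady state 6 of 40 members were higher in NOD and 13 were lower at an adjusted p under 0.1 (limma, Benjamini-Hochberg over 45037 probe sets), where 6.87% of all genes were higher and 8.35% were lower. The median member differed by -0.21 on the log2 scale, against 0.03 for all genes. After PBS culture 6 members were higher in NOD and 4 lower, where the background was 5.43% and 5.28% of genes. After LPS culture 5 were higher and 5 lower, where the background was 5.21% and 5.43%. Median members differed by 0.05 after PBS and 0.01 after LPS, close to the 0.04 and 0.01 of all genes. Xcl1, Ccr2 and Cxcl12 were lower in NOD in all 3 conditions, and Cxcl14 was higher in all 3. The labels number the arrays of a group as replicates and do not say that each is a pool of its own, so these p-values measure the spread between arrays, which may be technical.

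**Figure D1:**
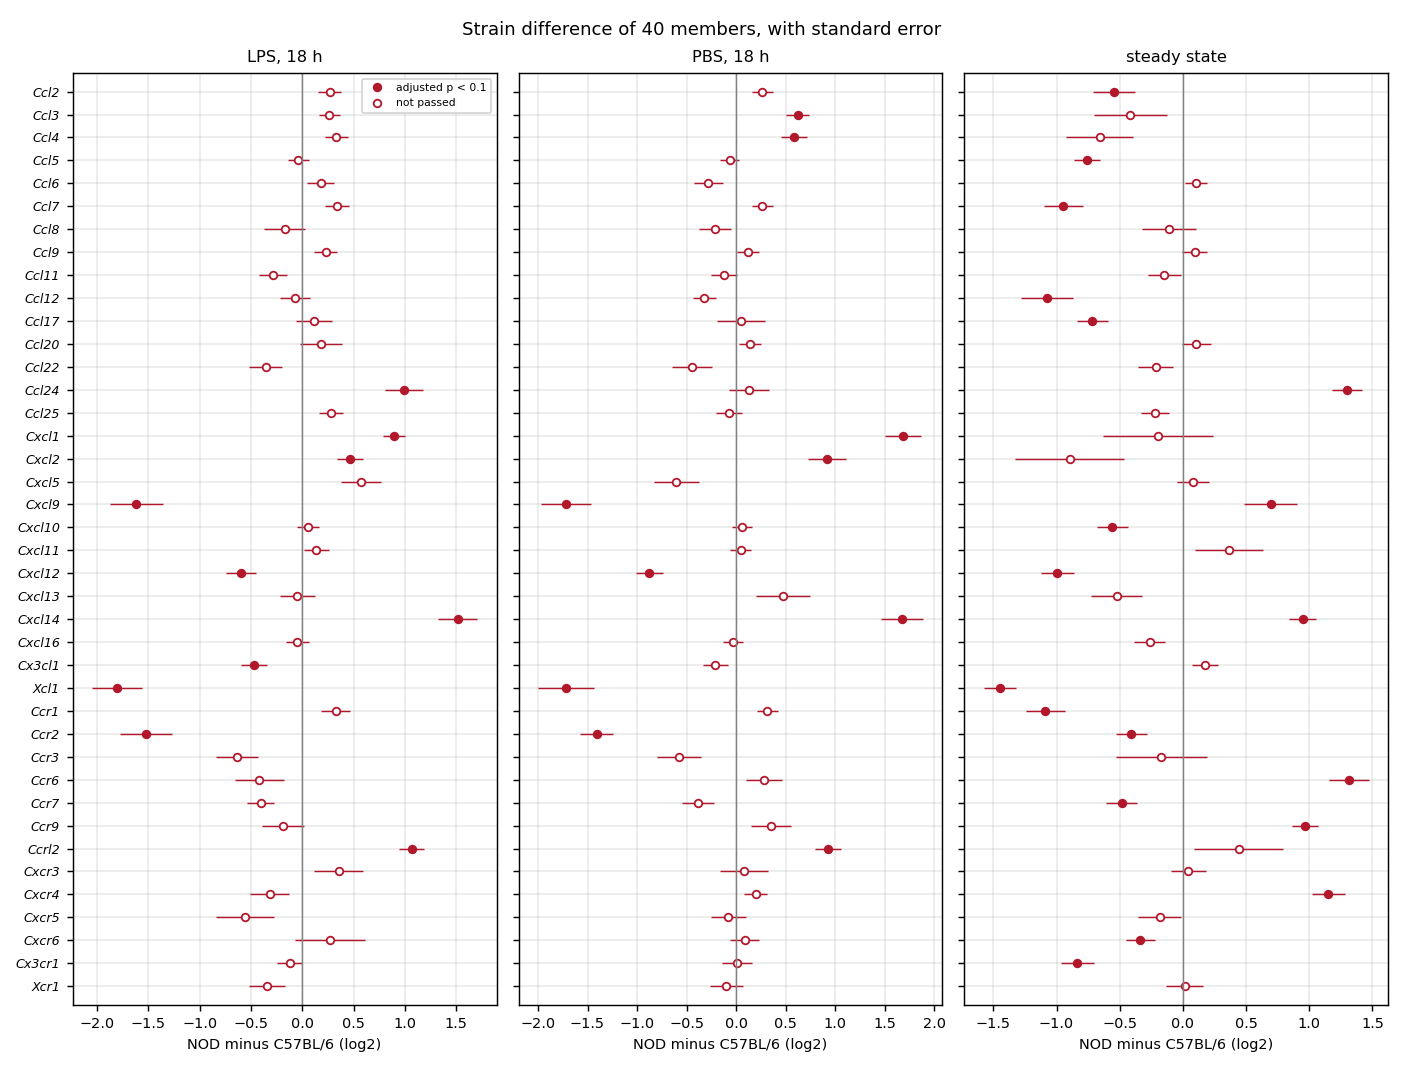
Strain difference (NOD minus C57BL/6, log2, horizontal axis) of each of the 40 members after LPS (left), after PBS (middle) and at steady state (right), with standard error bars. Filled points passed an adjusted p of 0.1 and open points did not. Xcl1 lay at -1.81, -1.72 and -1.45, left of 0 in all panels, and Cxcl14 at +1.52, +1.67 and +0.95, right of 0 in all panels.

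The LPS comparison asked which members responded to LPS beyond culture alone. In NOD DCs 6 members rose and 3 fell, where 1.93% of genes rose and 2.46% fell. In C57BL/6 DCs 6 members rose and none fell, where 0.945% of genes rose and 0.868% fell. Arrays that share a replicate number were paired, and with that pairing as a block 16 members passed in NOD (9 higher and 7 lower) and 11 in C57BL/6 (9 higher and 2 lower). The shares of all genes are those of the fit without the block, and none is given beside block counts here or below. The count for C57BL/6 fell when 1 array was left out, for several of the arrays: it was 2 without PBS replicate 1, LPS replicate 2 or LPS replicate 3, and 3 without PBS replicate 4 or LPS replicate 4. No member passed the test of the difference between the strains in LPS response, where 0.0165% and 0.0055% of genes passed in either direction, and 7 members had an unadjusted p under 0.05 in limma, the 1 tool run. The smallest adjusted p, 0.907, was shared by Cxcl5 (+1.18) and Cxcl1 (-0.78), which point in opposite directions. The share of all genes with such an unadjusted p is not given here.

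Culture without LPS was the larger difference. In NOD DCs 27 members were higher after PBS culture than at steady state and 11 were lower, where 41.6% of genes were higher and 30% were lower. In C57BL/6 DCs 24 were higher and 11 lower, where the background was 44.6% and 32.3%. The median member differed by +0.89 in NOD and +0.85 in C57BL/6, against 0.16 and 0.17 for all genes. Strain and culture interacted for 16 members, 11 with a more positive change in NOD and 5 with a more negative one, where 4.91% and 2.89% of genes did so. With the replicate number as a block 6 members passed this interaction, 5 of them among the 16. That fit draws only on arrays whose number recurs within their strain, so it rests on fewer arrays.

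**Figure D2:**
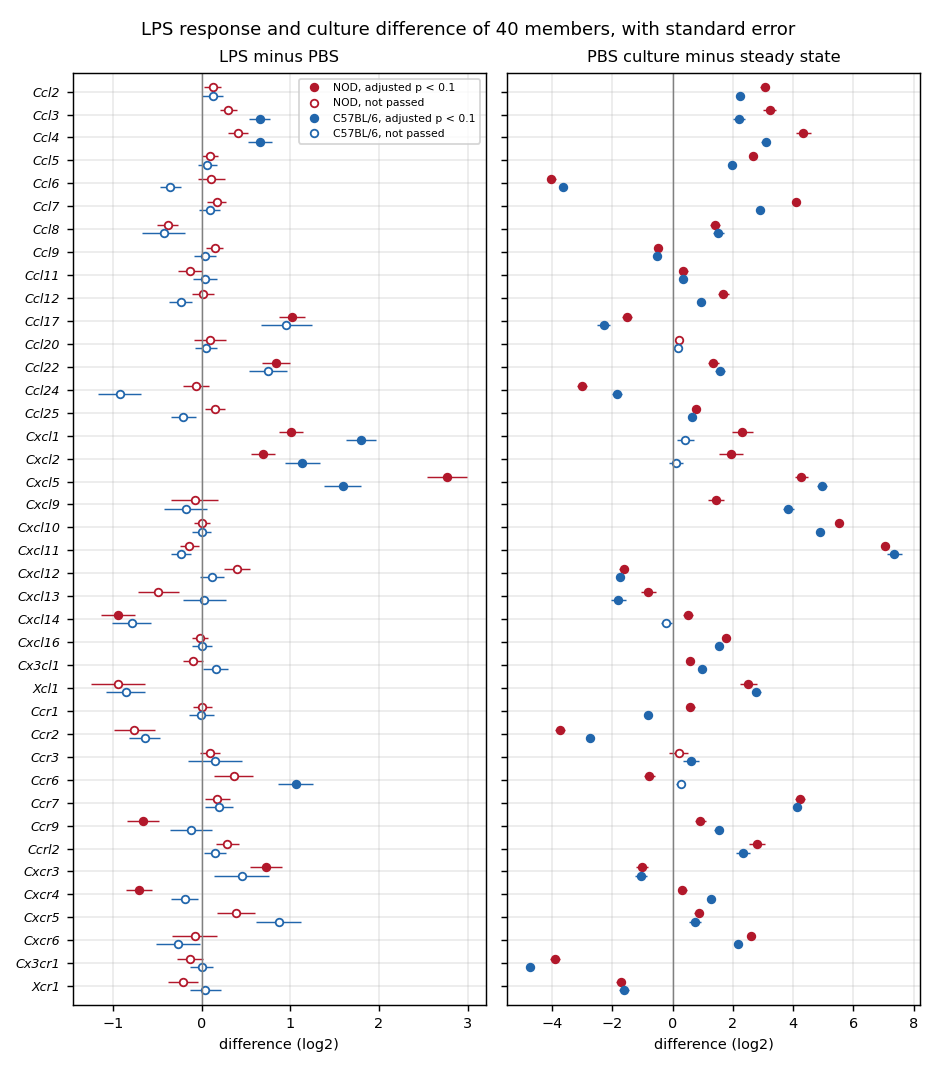
Response to LPS (LPS minus PBS, left) and culture difference (PBS minus steady state, right) of the 40 members, both on the log2 scale with standard error bars, in NOD (red) and C57BL/6 DCs (blue). Filled points passed an adjusted p of 0.1. LPS differences lay within -0.95 to +2.77, whereas culture differences reached +7.04 in NOD and +7.36 in C57BL/6.

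Among the neutrophil attractants that act through Cxcr2, Cxcl1 and Cxcl2 were higher in NOD in both cultures. The 3 that belong to the 40 members, Cxcl1, Cxcl2 and Cxcl5, rose with LPS in both strains. In all, 5.43% of genes were higher in NOD after PBS and 5.21% after LPS, and 1.93% rose with LPS in NOD and 0.945% in C57BL/6. Cxcl3, outside the 40, did not differ between strains after PBS (adjusted p = 0.486) or LPS (adjusted p = 0.126). With LPS it passed in NOD and not in C57BL/6 (+1.37, adjusted p = 0.129). Cxcl1 (probe set 1441855_x_at) lies at chr5:90891245-90893121. Cxcl1 had log2 values of 14.44, 14.27, 14.32 and 14.32 on the NOD LPS arrays and 13.51, 13.41 and 13.40 on the C57BL/6 LPS arrays. After PBS, Cxcl1 had log2 values of 13.46, 13.18, 13.66 and 13.03 in NOD DCs and 11.90, 11.88, 11.59 and 11.24 in C57BL/6 DCs. At steady state, Cxcl1 had log2 values of 10.41, 10.49 and 12.17 in NOD DCs and 10.48, 11.24, 11.09 and 12.07 in C57BL/6 DCs. The strains did not overlap after LPS or PBS, and at steady state they did, with replicate 6 the highest array of each strain. The strain difference was +1.68 ± 0.18 (SE), adjusted p = 0.000181, after PBS, a 3.21-fold difference, +0.90 (adjusted p = 0.000953) after LPS and -0.20 (adjusted p = 0.808) at steady state. Cxcl1 rose with LPS by +1.01 ± 0.14 (SE), adjusted p = 0.0043, in NOD and by +1.79 ± 0.17 (SE), adjusted p = 0.0104, in C57BL/6. Culture without LPS raised it in NOD (+2.31 ± 0.35 (SE), adjusted p = 0.000161) and gave +0.43 (adjusted p = 0.184) in C57BL/6, where a second probe set read +0.57 (adjusted p = 0.0674).

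Cxcl2 (probe set 1449984_at), at chr5:90903899-90905938 beside Cxcl1, had the same order of groups. Cxcl2 had log2 values of 14.00, 13.91, 13.88 and 13.76 on the NOD LPS arrays and 13.59, 13.38 and 13.29 on the C57BL/6 LPS arrays. After PBS, Cxcl2 had log2 values of 13.28, 13.27, 13.42 and 12.82 in NOD DCs and 12.58, 12.58, 12.19 and 11.79 in C57BL/6 DCs. At steady state, Cxcl2 had log2 values of 10.53, 10.69 and 12.58 in NOD DCs and 11.61, 12.16, 12.11 and 12.77 in C57BL/6 DCs. NOD lay above C57BL/6 on every cultured array of the same treatment. The strain difference was +0.92 ± 0.19 (SE), adjusted p = 0.0143, after PBS and +0.47 ± 0.12 (SE), adjusted p = 0.0509, after LPS. The second of these was lost when any 1 of NOD LPS replicates 1, 2 or 3 and C57BL/6 LPS replicates 3 or 4 was left out (adjusted p = 0.1 to 0.153). LPS raised Cxcl2 by +0.69 ± 0.14 (SE), adjusted p = 0.0235, in NOD and by +1.14 ± 0.20 (SE), adjusted p = 0.0457, in C57BL/6, a response that did not pass when any 1 of C57BL/6 PBS replicate 1 and C57BL/6 LPS replicates 2, 3 or 4 was left out (adjusted p = 0.102 to 0.161). Culture alone gave +1.93 (adjusted p = 0.00125) in NOD and +0.12 (adjusted p = 0.659) in C57BL/6.

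Cxcl5 (probe set 1419728_at) made the largest LPS response in NOD among the members. Cxcl5 had log2 values of 11.44, 10.82, 11.02 and 11.17 on the NOD LPS arrays and 10.60, 10.87 and 10.15 on the C57BL/6 LPS arrays. After PBS, Cxcl5 had log2 values of 8.22, 8.12, 9.07 and 7.97 in NOD DCs and 8.93, 8.66, 9.35 and 8.86 in C57BL/6 DCs. At steady state, Cxcl5 had log2 values of 3.95, 4.09 and 4.16 in NOD DCs and 4.19, 3.75, 4.16 and 3.85 in C57BL/6 DCs. Every LPS array lay above every PBS array of its strain, and all 7 steady state arrays lay below the lower quartile of their array, so that the size of the culture difference depends on values near the bottom of the scale. LPS raised Cxcl5 by +2.77 ± 0.22 (SE), adjusted p = 0.000601, a 6.81-fold rise in NOD, and by +1.59 ± 0.21 (SE), adjusted p = 0.0203, a 3.01-fold rise in C57BL/6. The difference between these responses did not pass (+1.18 (adjusted p = 0.907)). Culture raised it by +4.28 (adjusted p = 2.49e-08) in NOD and +4.96 (adjusted p = 3.9e-10) in C57BL/6, and without the block the strains did not differ by the test in any condition. Neutrophil markers moved as well: after PBS 3 of 5 measured were lower in NOD and none higher. After LPS 3 were lower, S100a9 (-4.22 (adjusted p = 3.56e-05)), Ngp (-2.87 (adjusted p = 0.000422)) and Camp (-1.54 (adjusted p = 0.00108)), and 1, S100a8, was higher (+0.87 (adjusted p = 0.0134)). S100a8 also rose with LPS, +1.83 (adjusted p = 0.0024) in NOD and +1.59 (adjusted p = 0.0456) in C57BL/6, and Csf3r rose in NOD (+0.60 (adjusted p = 0.0158)). Among all genes 5.28% were lower and 5.43% higher in NOD after PBS, and 5.43% were lower and 5.21% higher after LPS. The neutrophil markers had a mean of 9.24 to 10.37 on NOD PBS and 10.31 to 11.45 on C57BL/6 PBS arrays. None of these markers was below the lower quartile throughout a group, and their part in these results was not tested.

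The inflammatory CC ligands that attract monocytes and T cells were lower in NOD at steady state or did not differ, and in culture they came close to the top of the array scale in both strains. At steady state 4 of 7 were lower in NOD (Ccl2, Ccl5, Ccl7 and Ccl12) and none was higher, where 8.35% of all genes were lower and 6.87% higher. After PBS 2 (Ccl3 and Ccl4) were higher in NOD, where 5.43% of all genes were. All 7 rose with culture in both strains, where 41.6% of all genes rose in NOD and 44.6% in C57BL/6. Ccl2 (probe set 1420380_at), a ligand of Ccr2 that draws monocytes from the blood, shows the pattern. Ccl2 had log2 values of 14.57, 14.61, 14.66 and 14.58 on the NOD LPS arrays and 14.44, 14.19 and 14.39 on the C57BL/6 LPS arrays. After PBS, Ccl2 had log2 values of 14.49, 14.48, 14.59 and 14.36 in NOD DCs and 14.26, 14.31, 14.12 and 14.18 in C57BL/6 DCs. At steady state, Ccl2 had log2 values of 11.22, 11.20 and 11.86 in NOD DCs and 11.80, 11.92, 11.99 and 12.19 in C57BL/6 DCs. NOD replicate 6 at steady state fell within the C57BL/6 range and the other 2 NOD arrays lay below it, and on PBS and LPS arrays NOD lay above C57BL/6 without overlap. The difference was -0.55 ± 0.16 (SE), adjusted p = 0.0629, at steady state, which was lost when any 1 of NOD steady state replicates 1 or 4 and C57BL/6 steady state replicates 4, 5 or 6 was left out (adjusted p = 0.101 to 0.211), and it did not pass after PBS (+0.26 (adjusted p = 0.194)) or LPS (+0.27 (adjusted p = 0.231)). Culture raised Ccl2 by +3.05 ± 0.16 (SE), adjusted p = 3.11e-08, in NOD and by +2.24 ± 0.11 (SE), adjusted p = 1.06e-08, in C57BL/6.

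Ccl7 and Ccl12, further ligands of Ccr2 from the same gene cluster on chromosome 11, differed more at steady state, by -0.95 ± 0.16 (SE), adjusted p = 0.00276, and by -1.08 ± 0.20 (SE), adjusted p = 0.0067. Ccl5, which attracts T cells and monocytes, differed by -0.76 ± 0.10 (SE), adjusted p = 0.000804, at steady state and by -0.06 and -0.04 after PBS and LPS. Ccl7 rose with culture by +4.10 in NOD and +2.89 in C57BL/6, Ccl12 by +1.69 and +0.94, and Ccl5 by +2.66 and +1.96. Ccl8, which acts through Ccr8 in mice, rose by +1.41 and +1.52 and did not differ between strains by the test in any condition.

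Ccl4 (probe set 1421578_at), like Ccl3 a macrophage inflammatory protein, was among the largest culture differences in NOD. Ccl4 had log2 values of 14.17, 14.17, 14.38 and 14.26 on the NOD LPS arrays and 13.84, 13.97 and 13.94 on the C57BL/6 LPS arrays. After PBS, Ccl4 had log2 values of 13.68, 13.83, 14.07 and 13.78 in NOD DCs and 13.33, 13.31, 13.40 and 12.99 in C57BL/6 DCs. At steady state, Ccl4 had log2 values of 8.85, 9.45 and 10.22 in NOD DCs and 9.82, 10.28, 10.13 and 10.42 in C57BL/6 DCs. NOD lay above C57BL/6 on all PBS arrays, and the strains overlapped at steady state. The strain difference after PBS was +0.58 ± 0.13 (SE), adjusted p = 0.0201, for Ccl4 and +0.62 ± 0.11 (SE), adjusted p = 0.00683, for Ccl3. LPS raised both in C57BL/6, Ccl3 by +0.65 ± 0.12 (SE), adjusted p = 0.0515, and Ccl4 by +0.66 ± 0.13 (SE), adjusted p = 0.0664, and gave +0.30 (adjusted p = 0.172) and +0.41 (adjusted p = 0.104) in NOD. The C57BL/6 call was lost for Ccl3 when any 1 of C57BL/6 PBS replicates 1 or 4 and C57BL/6 LPS replicates 2, 3 or 4 was left out (adjusted p = 0.133 to 0.167) and for Ccl4 when any 1 of C57BL/6 PBS replicates 1, 2 or 4 and C57BL/6 LPS replicates 2, 3 or 4 was left out (adjusted p = 0.106 to 0.214). Culture raised Ccl3 by +3.23 in NOD and +2.19 in C57BL/6, and Ccl4 by +4.33 and +3.09. On the NOD LPS arrays 0.0111% to 0.0178% of probe sets were brighter than that of Ccl3, and on the NOD PBS arrays 0.04% to 0.118%, and whether such signals still respond in proportion was not tested.

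The 3 ligands of Cxcr3, which interferons induce and which attract T and NK cells, parted in the strain comparison: Cxcl9 was lower in NOD in both cultures, while Cxcl10 and Cxcl11 did not differ there by the test. They lie side by side on chromosome 5, Cxcl9 at chr5:92321331-92328079. Cxcl9 (probe set 1418652_at) had log2 values of 11.44, 12.35, 11.58 and 11.62 on the NOD LPS arrays and 13.43, 12.85 and 13.81 on the C57BL/6 LPS arrays. After PBS, Cxcl9 had log2 values of 11.71, 12.63, 11.38 and 11.57 in NOD DCs and 13.73, 13.65, 13.06 and 13.74 in C57BL/6 DCs. At steady state, Cxcl9 had log2 values of 10.19, 10.82 and 10.15 in NOD DCs and 9.90, 9.95, 9.18 and 9.74 in C57BL/6 DCs. The strains did not overlap in any condition, and NOD was the higher at steady state and the lower in culture. The difference was -1.72 ± 0.25 (SE), adjusted p = 0.00162, after PBS, a 3.29-fold difference, and -1.62 ± 0.26 (SE), adjusted p = 0.00452, after LPS. At steady state it was +0.69 ± 0.21 (SE), adjusted p = 0.0623, a call lost when any 1 of NOD steady state replicate 4 and C57BL/6 steady state replicates 5 or 6 was left out (adjusted p = 0.105 to 0.215), and the other probe set read +0.18 (adjusted p = 0.563). Culture raised Cxcl9 by +1.44 ± 0.27 (SE), adjusted p = 0.000742, in NOD and by +3.85 ± 0.19 (SE), adjusted p = 1.29e-08, in C57BL/6.

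Cxcl10 (probe set 1418930_at), at chr5:92346638-92348889, was lower in NOD at steady state and bright on all 15 cultured arrays. Cxcl10 had log2 values of 14.37, 14.34, 14.37 and 14.35 on the NOD LPS arrays and 14.29, 14.34 and 14.28 on the C57BL/6 LPS arrays. After PBS, Cxcl10 had log2 values of 14.38, 14.35, 14.42 and 14.27 in NOD DCs and 14.27, 14.29, 14.34 and 14.30 in C57BL/6 DCs. At steady state, Cxcl10 had log2 values of 8.67, 8.95 and 8.89 in NOD DCs and 9.29, 9.37, 9.24 and 9.67 in C57BL/6 DCs. The steady state arrays of the strains did not overlap, and in culture the spread over all groups was small. The strain difference was -0.56 ± 0.12 (SE), adjusted p = 0.0163, at steady state, +0.06 (adjusted p = 0.818) after PBS and +0.06 (adjusted p = 0.853) after LPS. Culture raised it by +5.52 ± 0.12 (SE), adjusted p = 4.91e-11, in NOD and by +4.91 ± 0.11 (SE), adjusted p = 4.15e-11, in C57BL/6. On the NOD PBS arrays 0.0777% to 0.12% of probe sets were brighter than Cxcl10, and on the C57BL/6 PBS arrays 0.104% to 0.151%.

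Cxcl11 (probe set 1419697_at) made the largest culture difference of the members in each strain. Cxcl11 had log2 values of 13.41, 13.61, 13.32 and 13.52 on the NOD LPS arrays and 13.36, 13.21 and 13.41 on the C57BL/6 LPS arrays. After PBS, Cxcl11 had log2 values of 13.68, 13.73, 13.50 and 13.53 in NOD DCs and 13.65, 13.59, 13.48 and 13.54 in C57BL/6 DCs. At steady state, Cxcl11 had log2 values of 6.57, 6.43 and 6.69 in NOD DCs and 6.82, 5.38, 6.48 and 6.13 in C57BL/6 DCs. Cultured and steady state arrays were far apart, and the strains overlapped at steady state and after PBS. Culture raised it by +7.04 ± 0.12 (SE), adjusted p = 1.42e-11, in NOD and by +7.36 ± 0.24 (SE), adjusted p = 4.39e-10, in C57BL/6, and the LPS difference was -0.14 (adjusted p = 0.704) and -0.24 (adjusted p = 0.526). The C57BL/6 gene is known to carry a frameshift, so a transcript there does not stand for a functional protein.

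**Figure D3:**
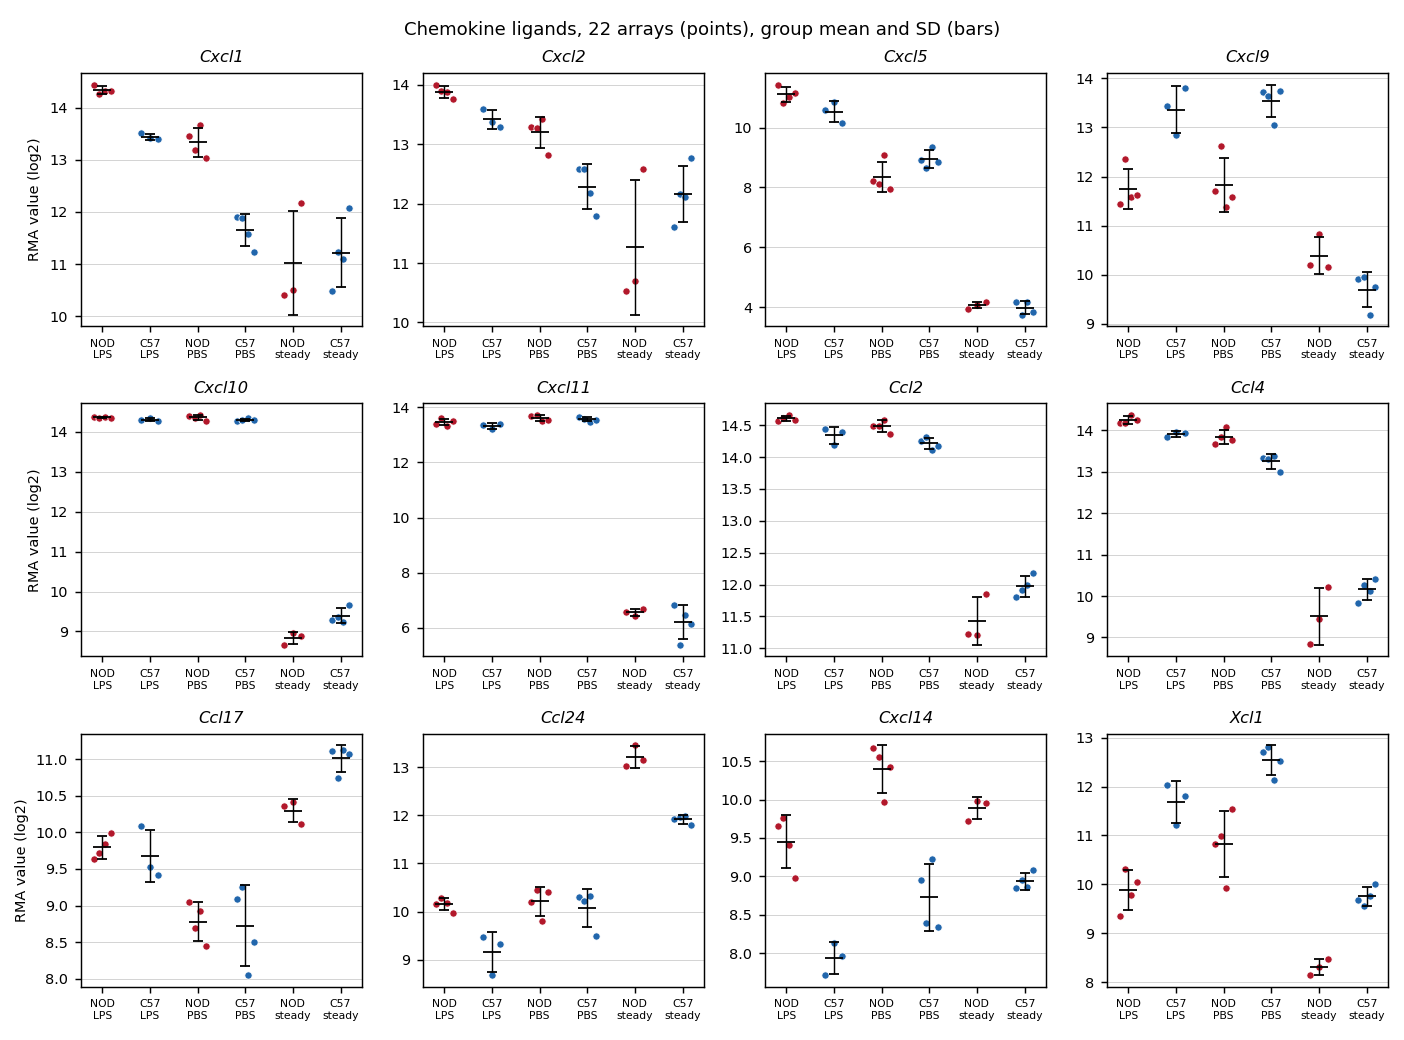
RMA values (log2, vertical axis, each panel on its own scale) of 12 ligands on the 22 arrays, as points, with group means and SD as bars, NOD in red and C57BL/6 in blue. Cxcl9 averaged 11.82 ± 0.55 on NOD PBS and 13.54 ± 0.33 on C57BL/6 PBS arrays (SD, n = 4 each), and Cxcl10 averaged 14.36 ± 0.06 and 14.30 ± 0.03 on the same arrays.

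Ccl17 and Ccl22, ligands of Ccr4 that maturing DCs make to attract T cells, both rose with LPS in NOD. Ccl17 (probe set 1419413_at) lies beside Ccl22 and Cx3cl1 on chromosome 8. Ccl17 had log2 values of 9.63, 9.72, 9.84 and 9.99 on the NOD LPS arrays and 10.09, 9.53 and 9.42 on the C57BL/6 LPS arrays. After PBS, Ccl17 had log2 values of 9.05, 8.70, 8.92 and 8.44 in NOD DCs and 9.09, 9.26, 8.05 and 8.50 in C57BL/6 DCs. At steady state, Ccl17 had log2 values of 10.36, 10.41 and 10.12 in NOD DCs and 11.11, 10.74, 11.13 and 11.07 in C57BL/6 DCs. LPS arrays lay above PBS arrays without overlap in both strains, and the steady state arrays were the highest. LPS raised Ccl17 by +1.02 ± 0.14 (SE), adjusted p = 0.00504, in NOD, and the difference in C57BL/6 was +0.96 ± 0.29 (SE), adjusted p = 0.219 (adjusted p = 0.0604 with the replicate block). It fell with culture, with a difference of -1.52 in NOD and -2.29 in C57BL/6, and at steady state it was lower in NOD (-0.72 ± 0.12 (SE), adjusted p = 0.00372).

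Ccl22 (probe set 1417925_at) differed from Ccl17 in that culture raised it. Ccl22 had log2 values of 12.65, 12.79, 12.50 and 12.73 on the NOD LPS arrays and 13.11, 13.31 and 12.66 on the C57BL/6 LPS arrays. After PBS, Ccl22 had log2 values of 11.43, 11.97, 12.21 and 11.72 in NOD DCs and 11.97, 12.40, 12.71 and 12.03 in C57BL/6 DCs. At steady state, Ccl22 had log2 values of 10.66, 10.23 and 10.55 in NOD DCs and 10.66, 10.63, 10.52 and 10.97 in C57BL/6 DCs. Steady state arrays were the lowest in both strains. LPS raised Ccl22 by +0.84 ± 0.16 (SE), adjusted p = 0.0192, in NOD and gave +0.75 (adjusted p = 0.197) in C57BL/6, where the blocked fit passed (adjusted p = 0.0704). Culture raised it by +1.35 and +1.59. The strain difference did not pass in any condition without the block, and after PBS it passed with it (-0.45, adjusted p = 0.0234 with the block).

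Of the eotaxins, ligands of the eosinophil receptor Ccr3, Ccl24 was higher in NOD at steady state and after LPS. Ccl24 (probe set 1450488_at) had log2 values of 10.15, 10.28, 10.18 and 9.98 on the NOD LPS arrays and 9.46, 8.68 and 9.33 on the C57BL/6 LPS arrays. After PBS, Ccl24 had log2 values of 10.21, 10.45, 9.80 and 10.41 in NOD DCs and 10.30, 10.21, 10.33 and 9.49 in C57BL/6 DCs. At steady state, Ccl24 had log2 values of 13.03, 13.46 and 13.16 in NOD DCs and 11.92, 11.96, 12.00 and 11.79 in C57BL/6 DCs. The strains did not overlap at steady state or after LPS, and they overlapped after PBS. The difference was +1.30 ± 0.12 (SE), adjusted p = 4.9e-05, at steady state, a 2.46-fold difference, +0.99 ± 0.18 (SE), adjusted p = 0.00973, after LPS and +0.13 (adjusted p = 0.797) after PBS. Culture brought Ccl24 down in both strains, with differences of -3.00 in NOD and -1.83 in C57BL/6 on the log2 scale. Ccl11 did not differ between the strains by the test in any condition, and its culture difference of +0.36 (adjusted p = 0.0636) in NOD was lost when any 1 of NOD steady state replicates 4 or 6 and NOD PBS replicates 2 or 3 was left out (adjusted p = 0.101 to 0.246). Ccl6 and Ccl9, ligands of Ccr1 that myeloid cells make, fell with culture, Ccl6 with differences of -4.02 in NOD and -3.64 in C57BL/6 and Ccl9 of -0.48 and -0.50. Neither differed between strains on the probe set used, and a second Ccl9 probe set read +0.38 (adjusted p = 0.0835) at steady state.

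Cxcl14, a homeostatic chemokine of epithelia that attracts immature myeloid cells, was higher in NOD in all 3 conditions. Cxcl14 (probe set 1418457_at) had log2 values of 9.66, 9.76, 9.41 and 8.98 on the NOD LPS arrays and 7.72, 8.13 and 7.96 on the C57BL/6 LPS arrays. After PBS, Cxcl14 had log2 values of 10.67, 10.55, 9.96 and 10.42 in NOD DCs and 8.95, 8.39, 9.22 and 8.34 in C57BL/6 DCs. At steady state, Cxcl14 had log2 values of 9.72, 9.98 and 9.95 in NOD DCs and 8.85, 8.95, 8.86 and 9.09 in C57BL/6 DCs. The strains did not overlap in any of them. The difference was +1.67 ± 0.22 (SE), adjusted p = 0.000656, after PBS, +1.52 ± 0.19 (SE), adjusted p = 0.00118, after LPS and +0.95 ± 0.11 (SE), adjusted p = 0.000216, at steady state. The other probe set was higher in NOD too, by +1.86 (adjusted p = 3.01e-05) after PBS, +0.83 (adjusted p = 0.0132) after LPS and +0.39 (adjusted p = 0.0935) at steady state. With LPS it fell in NOD (-0.95 ± 0.19 (SE), adjusted p = 0.0264) and differed by -0.79 (adjusted p = 0.189) in C57BL/6. The culture difference depended on the probe set: it was +0.51 (adjusted p = 0.0195) in NOD and -0.21 (adjusted p = 0.322) in C57BL/6 on the one used, and -0.60 (adjusted p = 0.00961) and -2.07 (adjusted p = 5.86e-08) on the other.

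Cxcl12, the ligand of Cxcr4 that stromal cells make, was lower in NOD throughout, by -1.0 ± 0.13 (SE), adjusted p = 0.000672, at steady state, -0.88 ± 0.14 (SE), adjusted p = 0.00223, after PBS and -0.60 ± 0.15 (SE), adjusted p = 0.0414, after LPS. The last call was lost without C57BL/6 LPS replicate 3 (adjusted p = 0.146), and another of its probe sets read +0.19 (adjusted p = 0.408), +0.14 (adjusted p = 0.588) and 0.00 (adjusted p = 0.998). At steady state 3 of 5 stromal markers were lower in NOD as well, with means of 8.33 to 8.71 on NOD and 8.80 to 9.41 on C57BL/6 arrays and none below the lower quartile throughout a group, and their part in the Cxcl12 result was not tested. After PBS and LPS no stromal marker was lower in NOD by the test. Among all genes 8.35% were lower in NOD at steady state, 5.28% after PBS and 5.43% after LPS. Cxcl12 fell with culture (-1.61 in NOD and -1.73 in C57BL/6), where that probe set gave +0.28 (adjusted p = 0.103) and +0.33 (adjusted p = 0.0191). Cxcl13, the B cell attractant that acts through Cxcr5, fell with culture (-0.80 and -1.79) and differed by -0.52 (adjusted p = 0.139) between strains at steady state, where its other probe set read -0.77 (adjusted p = 0.0856).

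The membrane-bound ligands Cxcl16 and Cx3cl1 rose with culture, Cxcl16 by +1.78 in NOD and +1.55 in C57BL/6 and Cx3cl1 by +0.60 and +0.98. Cx3cl1 was lower in NOD after LPS (-0.47 ± 0.12 (SE), adjusted p = 0.0515), which was lost when any 1 of NOD LPS replicates 2 or 3 and C57BL/6 LPS replicates 2 or 3 was left out (adjusted p = 0.118 to 0.182) and was not called on any of its 3 other probe sets or with the replicate block (adjusted p = 0.109). Ccl20, the ligand of Ccr6, passed no comparison. Ccl25, the ligand of Ccr9, passed with culture alone (+0.79 and +0.64).

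Xcl1, the C ligand that NK cells and T cells make and that acts on cross-presenting DCs through Xcr1, was the member with the largest strain difference at steady state and after LPS. Xcl1 (probe set 1419412_at) had log2 values of 9.36, 10.32, 9.79 and 10.05 on the NOD LPS arrays and 12.03, 11.21 and 11.81 on the C57BL/6 LPS arrays. After PBS, Xcl1 had log2 values of 10.82, 11.00, 9.93 and 11.55 in NOD DCs and 12.72, 12.81, 12.12 and 12.51 in C57BL/6 DCs. At steady state, Xcl1 had log2 values of 8.15, 8.30 and 8.47 in NOD DCs and 9.68, 9.56, 9.77 and 10.01 in C57BL/6 DCs. NOD lay below C57BL/6 without overlap in each condition. The difference was -1.45 ± 0.13 (SE), adjusted p = 3.91e-05, at steady state, -1.72 ± 0.28 (SE), adjusted p = 0.00353, after PBS and -1.81 ± 0.25 (SE), adjusted p = 0.00184, after LPS, which is a 3.5-fold lower level in NOD. NK and innate lymphoid markers were also lower in NOD: 7 of the 8 measured at steady state (median -1.21), 4 of 8 after PBS (-0.69) and 4 of 8 after LPS (-0.95). Their mean was 8.76 to 9.56 on NOD PBS and 9.63 to 10.25 on C57BL/6 PBS arrays, and 8.45 to 9.32 on NOD LPS and 9.49 to 10.14 on C57BL/6 LPS arrays, and no marker was below the lower quartile throughout a group. Among all genes 8.35% were lower in NOD at steady state, 5.28% after PBS and 5.43% after LPS. The part of the NK and innate lymphoid markers in the Xcl1 result was not tested. Culture raised Xcl1 by +2.52 ± 0.29 (SE), adjusted p = 1.66e-05, in NOD and by +2.79 ± 0.16 (SE), adjusted p = 3.05e-08, in C57BL/6.

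Of the 13 receptors, 3 were higher in NOD at steady state (Ccr6, Ccr9 and Cxcr4) and 5 were lower (Ccr1, Ccr2, Ccr7, Cxcr6 and Cx3cr1), whereas in each culture 1 was higher (Ccrl2) and 1 lower (Ccr2). Of all genes 6.87% were higher and 8.35% lower at steady state, 5.43% and 5.28% after PBS, and 5.21% and 5.43% after LPS. Ccr2 (probe set 1421187_at), which lets monocytes and their descendants follow Ccl2, Ccl7 and Ccl12, lies at chr9:124101918-124109140 in a cluster with Ccr1, Ccr3, Xcr1, Cxcr6 and Ccr9. Ccr2 had log2 values of 7.16, 8.33, 7.51 and 7.97 on the NOD LPS arrays and 9.05, 9.20 and 9.56 on the C57BL/6 LPS arrays. After PBS, Ccr2 had log2 values of 8.19, 8.79, 8.33 and 8.71 in NOD DCs and 9.82, 9.80, 9.75 and 10.28 in C57BL/6 DCs. At steady state, Ccr2 had log2 values of 12.08, 12.34 and 12.30 in NOD DCs and 12.44, 12.77, 12.85 and 12.55 in C57BL/6 DCs. NOD was below C57BL/6 without overlap in all 3 conditions. The difference was -1.41 ± 0.17 (SE), adjusted p = 0.000377, after PBS, a 2.66-fold lower level in NOD, -1.53 ± 0.25 (SE), adjusted p = 0.00561, after LPS and -0.41 ± 0.12 (SE), adjusted p = 0.0647, at steady state, the last of which was lost when any 1 of NOD steady state replicates 1 or 6 and C57BL/6 steady state replicates 4 or 5 was left out (adjusted p = 0.133 to 0.15). Its 3 other probe sets were further apart at steady state, -1.47 (adjusted p = 1.58e-05), -0.61 (adjusted p = 0.00306) and -2.72 (adjusted p = 8.74e-08), and were lower in NOD in both cultures as well. Ccr2 fell with culture, with differences of -3.74 ± 0.16 (SE), adjusted p = 5.73e-09, in NOD and -2.74 ± 0.14 (SE), adjusted p = 1.63e-08, in C57BL/6.

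The Ccr2 response to LPS differed with the probe set and the pairing. On the probe set used it was -0.76 (adjusted p = 0.139) in NOD and -0.65 (adjusted p = 0.167) in C57BL/6, and with the replicate block it passed in both (adjusted p = 0.00761 and 0.0699). It passed in NOD also without NOD LPS replicate 2 (adjusted p = 0.0639). Of its 3 other probe sets, 2 gave -0.88 (adjusted p = 0.0933) and -1.0 (adjusted p = 0.0506) in NOD, and the second of these gave -1.06 (adjusted p = 0.0968) in C57BL/6. The remaining probe set gave no call with LPS, and with culture it read +0.10 (adjusted p = 0.518) in NOD, where the others fell.

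Ccr1, a receptor of Ccl3, Ccl5, Ccl6 and Ccl9 on myeloid cells, was lower in NOD at steady state alone. Ccr1 (probe set 1419609_at) had log2 values of 10.22, 10.16, 10.18 and 10.35 on the NOD LPS arrays and 9.61, 9.94 and 10.15 on the C57BL/6 LPS arrays. After PBS, Ccr1 had log2 values of 10.08, 10.16, 10.27 and 10.37 in NOD DCs and 10.01, 9.84, 9.83 and 9.94 in C57BL/6 DCs. At steady state, Ccr1 had log2 values of 9.90, 9.29 and 9.70 in NOD DCs and 10.61, 10.70, 10.56 and 11.01 in C57BL/6 DCs. At steady state the strains did not overlap. The difference was -1.09 ± 0.16 (SE), adjusted p = 0.00114, at steady state, +0.32 (adjusted p = 0.13) after PBS and +0.33 (adjusted p = 0.246) after LPS, and a second probe set was higher in NOD after PBS (+0.55 (adjusted p = 0.047)). With culture Ccr1 rose in NOD (+0.59 (adjusted p = 0.00602)) and fell in C57BL/6 (-0.82 (adjusted p = 8.52e-05)), where the second probe set read +0.21 (adjusted p = 0.267).

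Cx3cr1, the fractalkine receptor of monocytes and tissue macrophages, gave the largest fall with culture in each strain apart from Ccl6 in NOD. Cx3cr1 (probe set 1450020_at) had log2 values of 7.68, 7.42, 7.75 and 7.64 on the NOD LPS arrays and 7.70, 7.72 and 7.82 on the C57BL/6 LPS arrays. After PBS, Cx3cr1 had log2 values of 7.47, 7.90, 8.08 and 7.54 in NOD DCs and 7.99, 7.66, 7.71 and 7.61 in C57BL/6 DCs. At steady state, Cx3cr1 had log2 values of 11.43, 11.91 and 11.58 in NOD DCs and 12.32, 12.59, 12.39 and 12.59 in C57BL/6 DCs. Steady state arrays lay far above the cultured ones, and the strains overlapped in culture. The culture difference was -3.89 ± 0.17 (SE), adjusted p = 7.15e-09, in NOD and -4.73 ± 0.12 (SE), adjusted p = 8.09e-11, in C57BL/6. At steady state it was lower in NOD (-0.84 ± 0.13 (SE), adjusted p = 0.002), and the other probe set read -0.31 (adjusted p = 0.467). Macrophage markers fell with culture too, 6 of 10 in NOD and 7 of 10 in C57BL/6, with means of 11.91 to 12.26 on NOD PBS and 12.58 to 12.87 on NOD steady state arrays and of 12.17 to 12.52 and 12.97 to 13.15 on those of C57BL/6, while 2 of the 10 rose in each strain. Of the 3 measured monocyte markers 2 rose and 1 fell with culture in each strain, with means of 11.46 to 11.59 on NOD PBS and 10.36 to 10.44 on NOD steady state arrays and of 10.86 to 11.10 and 10.59 to 10.62 on those of C57BL/6. Among all genes 30% fell and 41.6% rose with culture in NOD, and 32.3% fell and 44.6% rose in C57BL/6. No macrophage or monocyte marker was below the lower quartile throughout a group, and their part in the fall of Cx3cr1 and Ccr2 was not tested.

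Ccr7 (probe set 1423466_at), which guides mature DCs to the lymph node, rose with culture in both strains. Ccr7 had log2 values of 13.10, 13.45, 13.24 and 13.27 on the NOD LPS arrays and 13.77, 13.77 and 13.48 on the C57BL/6 LPS arrays. After PBS, Ccr7 had log2 values of 12.75, 13.10, 13.38 and 13.15 in NOD DCs and 13.21, 13.52, 13.79 and 13.41 in C57BL/6 DCs. At steady state, Ccr7 had log2 values of 8.89, 8.67 and 9.05 in NOD DCs and 9.18, 9.34, 9.33 and 9.58 in C57BL/6 DCs. Every cultured array lay above every steady state array. The culture difference was +4.22 ± 0.16 (SE), adjusted p = 2.14e-09, in NOD, a 18.7-fold rise, and +4.13 ± 0.14 (SE), adjusted p = 5.24e-10, in C57BL/6, a 17.5-fold rise, and the difference between them was +0.10 ± 0.22 (SE), adjusted p = 0.89. LPS gave +0.17 (adjusted p = 0.735) and +0.19 (adjusted p = 0.747). At steady state it was lower in NOD (-0.49 ± 0.13 (SE), adjusted p = 0.0326), a call lost without NOD steady state replicate 4 (adjusted p = 0.113).

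Ccr6 and Cxcr4, receptors of Ccl20 and Cxcl12, were higher in NOD at steady state. Ccr6 (probe set 1450357_a_at) had log2 values of 8.82, 8.05, 8.35 and 7.76 on the NOD LPS arrays and 8.81, 8.88 and 8.29 on the C57BL/6 LPS arrays. After PBS, Ccr6 had log2 values of 8.35, 7.80, 7.78 and 7.61 in NOD DCs and 7.78, 7.89, 7.50 and 7.24 in C57BL/6 DCs. At steady state, Ccr6 had log2 values of 8.58, 8.39 and 8.98 in NOD DCs and 7.57, 7.05, 7.31 and 7.41 in C57BL/6 DCs. NOD was above C57BL/6 without overlap at steady state, and the strains overlapped in both cultures. The difference at steady state was +1.32 ± 0.16 (SE), adjusted p = 0.000351, a 2.49-fold difference. LPS raised Ccr6 in C57BL/6 (+1.06 ± 0.20 (SE), adjusted p = 0.0517), a call lost when any 1 of C57BL/6 PBS replicates 1 or 4 and C57BL/6 LPS replicates 2 or 3 was left out (adjusted p = 0.132 to 0.182), and gave +0.36 (adjusted p = 0.593) in NOD. With culture it fell in NOD (-0.77 (adjusted p = 0.00451)) and differed by +0.27 (adjusted p = 0.156) in C57BL/6.

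Cxcr4 showed the same order at steady state. Cxcr4 (probe set 1448710_at) had log2 values of 12.29, 11.72, 11.67 and 11.97 on the NOD LPS arrays and 12.19, 12.55 and 11.95 on the C57BL/6 LPS arrays. After PBS, Cxcr4 had log2 values of 12.76, 12.53, 12.43 and 12.75 in NOD DCs and 12.34, 12.52, 12.46 and 12.37 in C57BL/6 DCs. At steady state, Cxcr4 had log2 values of 12.07, 12.38 and 12.42 in NOD DCs and 10.99, 11.29, 11.33 and 10.95 in C57BL/6 DCs. The strains were apart at steady state and overlapped in culture. The difference was +1.15 ± 0.13 (SE), adjusted p = 0.000265, at steady state and did not pass after PBS (+0.20 (adjusted p = 0.416)) or LPS (-0.32 (adjusted p = 0.415)). LPS lowered Cxcr4 in NOD (-0.71 ± 0.15 (SE), adjusted p = 0.0323), a call lost when any 1 of NOD PBS replicate 4 and NOD LPS replicate 2 was left out (adjusted p = 0.103 to 0.108), and gave -0.19 (adjusted p = 0.74) in C57BL/6. Culture raised it by +0.33 (adjusted p = 0.0571) in NOD, a call lost when any 1 of NOD steady state replicate 1 and NOD PBS replicates 1 or 4 was left out (adjusted p = 0.12 to 0.237), and by +1.28 (adjusted p = 1.73e-06) in C57BL/6.

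Ccrl2, an atypical receptor that binds chemerin and does not signal as the classical ones do, was higher in NOD in both cultures. Ccrl2 (probe set 1427736_a_at) had log2 values of 13.62, 13.36, 13.40 and 13.34 on the NOD LPS arrays and 12.37, 12.23 and 12.49 on the C57BL/6 LPS arrays. After PBS, Ccrl2 had log2 values of 13.34, 13.02, 13.32 and 12.89 in NOD DCs and 12.33, 12.16, 12.15 and 12.22 in C57BL/6 DCs. At steady state, Ccrl2 had log2 values of 9.72, 10.12 and 11.15 in NOD DCs and 9.25, 9.88, 9.75 and 10.67 in C57BL/6 DCs. NOD lay above C57BL/6 without overlap on LPS and on PBS arrays, and the strains overlapped at steady state. The difference was +1.07 ± 0.12 (SE), adjusted p = 0.00074, after LPS, +0.93 ± 0.13 (SE), adjusted p = 0.00107, after PBS and +0.44 (adjusted p = 0.468) at steady state. Culture raised it by +2.81 in NOD and +2.33 in C57BL/6.

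**Figure D4:**
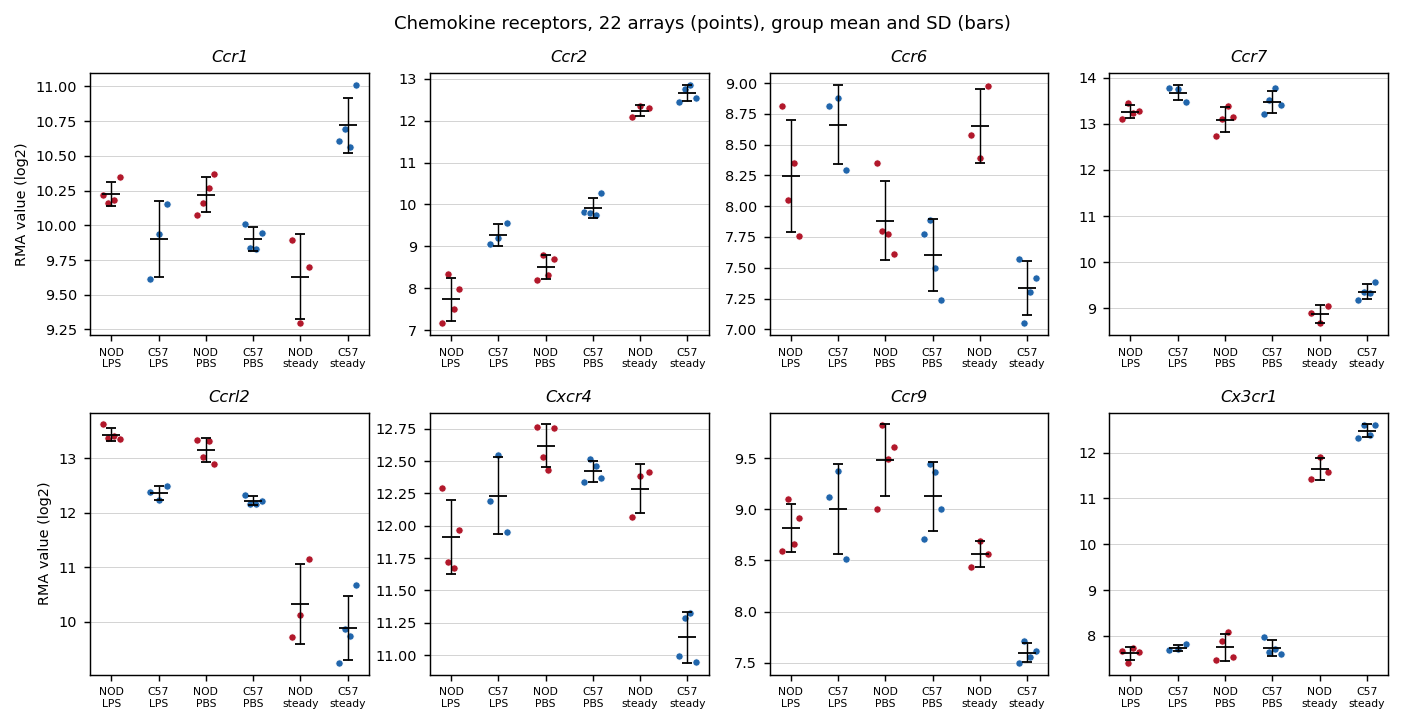
RMA values (log2, vertical axis, each panel on its own scale) of 8 receptors on the 22 arrays, as points, with group means and SD as bars, NOD in red and C57BL/6 in blue. Ccr2 averaged 8.50 ± 0.29 on NOD PBS and 9.91 ± 0.25 on C57BL/6 PBS arrays (SD, n = 4 each), and Ccr7 averaged 13.09 ± 0.26 on NOD PBS and 8.87 ± 0.19 on NOD steady state arrays (n = 4 and 3).

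Ccr9, the receptor of Ccl25 on plasmacytoid DCs and on cells bound for the gut, was higher in NOD at steady state (+0.97 ± 0.10 (SE), adjusted p = 0.000138) on 3 of its 4 other probe sets as well, and the remaining one read +0.11 (adjusted p = 0.698). After PBS it did not pass (+0.35 (adjusted p = 0.393)), although 1 other probe set did (+0.70 (adjusted p = 0.0744)). LPS lowered Ccr9 in NOD (-0.66 (adjusted p = 0.088)), a call lost when any 1 of NOD PBS replicates 2, 3 or 4 and NOD LPS replicates 1, 3 or 4 was left out (adjusted p = 0.148 to 0.229) and not made on 2 other probe sets. Plasmacytoid DC markers averaged 11.01 to 11.12 on NOD and 10.62 to 10.91 on C57BL/6 steady state arrays, with 1 of 4 higher and 1 lower in NOD, and their part was not tested. Among all genes 6.87% were higher and 8.35% lower in NOD at steady state. Culture raised Ccr9 by +0.92 in NOD and +1.53 in C57BL/6.

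Cxcr3, the T and NK cell receptor of Cxcl9 to Cxcl11, rose with LPS in NOD (+0.72 (adjusted p = 0.0751)), which was lost when any 1 of NOD PBS replicates 1 or 4 and NOD LPS replicates 2, 3 or 4 was left out (adjusted p = 0.159 to 0.212), and fell with culture (-1.01 in NOD and -1.04 in C57BL/6). Cxcr6, the receptor of Cxcl16, rose with culture (+2.60 and +2.18) and was lower in NOD at steady state (-0.34 (adjusted p = 0.0937)), a call lost when any 1 of NOD steady state replicates 4 or 6 and C57BL/6 steady state replicates 4, 5 or 6 was left out (adjusted p = 0.108 to 0.254) and with the replicate block (adjusted p = 0.135). Cxcr5 rose with culture (+0.86 and +0.76) and passed no other comparison without the block. Ccr3, the eotaxin receptor, passed once without it, with culture in C57BL/6 (+0.61 (adjusted p = 0.0617)), which was lost when any 1 of C57BL/6 steady state replicates 4 or 5 and C57BL/6 PBS replicate 3 was left out (adjusted p = 0.144 to 0.166). Xcr1, the receptor of Xcl1 and a marker of cross-presenting DCs, fell with culture (-1.72 and -1.61) and did not differ between strains by the test. The 6 measured markers of CD8α+ or CD103+ DCs averaged 10.23 to 10.25 on NOD and 10.17 to 10.37 on C57BL/6 steady state arrays. None of them was below the lower quartile throughout a group, and their part was not tested.

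Further members passed in the paired comparisons with the replicate block alone. At steady state these were the ligands Cxcl2 (-0.91, adjusted p = 0.00357), Ccl4 (-0.67, adjusted p = 0.00647), Ccl3 (-0.41, adjusted p = 0.0368) and Cxcl13 (-0.52, adjusted p = 0.068), lower in NOD, and Ccrl2 (+0.39, adjusted p = 0.0394), higher in NOD. On these block estimates Ccl3, Ccl4 and Cxcl2 ran opposite to their PBS difference, in which NOD was higher. Without the block Ccl3, Ccl4 and Cxcl2 did not pass at steady state (adjusted p = 0.399, 0.157 and 0.233), and the strains overlapped. The block there rests on 3 shared numbers, which the labels do not call pairs. After PBS the block added Cxcl5 (-0.60, adjusted p = 0.0185), Ccr7 (-0.39, adjusted p = 0.0375) and Ccr3 (-0.58, adjusted p = 0.0483) as lower in NOD and Ccr9 (+0.35, adjusted p = 0.0845) as higher. After LPS it added the receptors Cxcr5 (-0.80, adjusted p = 0.018), Ccr6 (-0.61, adjusted p = 0.0306) and Ccr3 (-0.65, adjusted p = 0.0903), all lower in NOD. In the LPS comparison, Xcl1 was lower after LPS than after PBS in NOD (-0.95, adjusted p = 0.046) and in C57BL/6 (-0.80, adjusted p = 0.0549) with the block. NOD DCs also gave higher Ccl4 (+0.41, adjusted p = 0.0337), Ccr6 (+0.36, adjusted p = 0.0844) and Ccl3 (+0.30, adjusted p = 0.093) and lower Ccl8 (-0.39, adjusted p = 0.0567) and Cxcl13 (-0.49, adjusted p = 0.0964) with LPS, and C57BL/6 DCs gave higher Cxcr5 (+0.74, adjusted p = 0.0807).

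The culture difference itself differed between the strains for 16 members. NOD changed further upwards for the CC ligands Ccl2 (+0.81), Ccl3 (+1.04), Ccl4 (+1.24), Ccl5 (+0.69), Ccl7 (+1.21) and Ccl12 (+0.75), for Cxcl1 (+1.88), Cxcl2 (+1.81) and Cxcl10 (+0.62), and for the receptor Ccr1 (+1.40). Cx3cr1 (+0.84) fell with culture in both strains, and by less in NOD. NOD changed less upwards or further downwards for Cxcl9 (-2.41), Ccl24 (-1.17), Ccr6 (-1.03), Ccr2 (-1.0) and Cxcr4 (-0.95). Cxcl9 carried the largest of these values, -2.41 ± 0.36 (SE), adjusted p = 0.000609. With the replicate number as a block only Ccl7, Cxcl1, Cxcl2, Cxcl9 and Ccr2 of the 16 passed, and the other 11 did not (adjusted p = 0.102 to 0.626). NOD and C57BL/6 steady state arrays share 2 numbers with the PBS arrays of their strain, and the labels do not say that a number marks a shared sort. Arrays without such a partner add nothing to the blocked interaction, so it rests on fewer arrays than the fit without the block. Several of the 16 did not keep their call when 1 array was left out: Cxcl1 did not pass when any 1 of NOD steady state replicates 1 or 4 was left out (adjusted p = 0.102 to 0.136), Cxcl2 when any 1 of NOD steady state replicates 1 or 4 and C57BL/6 steady state replicate 6 was left out (adjusted p = 0.114 to 0.172) and Ccr6 without NOD steady state replicate 6 (adjusted p = 0.107). Ccl3 was lost when any 1 of NOD steady state replicates 1 or 4 and NOD PBS replicates 1, 2, 3 or 4 and C57BL/6 steady state replicates 4, 5 or 6 and C57BL/6 PBS replicates 1, 2 or 4 was left out (adjusted p = 0.106 to 0.231), and Ccl12 when any 1 of NOD steady state replicate 4 and NOD PBS replicates 1, 2 or 3 and C57BL/6 steady state replicates 1, 4 or 6 and C57BL/6 PBS replicates 1, 2 or 3 was left out (adjusted p = 0.109 to 0.275). Another probe set of Ccr2 read +1.06 (adjusted p = 0.0156) and another of Cx3cr1 -0.06 (adjusted p = 0.965).

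Of 22 further genes of the chemokine system, 19 were measured. At steady state 1 was higher in NOD, Cxcr2, the receptor of Cxcl1 and Cxcl2 (+0.95 (adjusted p = 0.00377)), and 3 were lower, led by Ackr3, a scavenging receptor of Cxcl12 (-1.18 (adjusted p = 0.0539)). Of all genes 6.87% were higher and 8.35% lower. Cxcr2 lay below the lower quartile on every C57BL/6 steady state array, so the size of its difference depends on values near the bottom of the scale. Dpp4, a protease that trims chemokines, was lower in NOD after PBS (-0.73 (adjusted p = 0.02)) and after LPS (-0.69 (adjusted p = 0.00452)), and Ccr8 was lower after LPS (-0.40 (adjusted p = 0.095)). No other of the 19 passed there, where 5.43% of all genes were higher and 5.28% lower after PBS, and 5.21% and 5.43% after LPS. Ccr8 lay below the lower quartile on every array of all 6 groups, so its call rests on values near the bottom of the scale. With LPS in NOD 1 rose, Cxcl3 (+1.45 (adjusted p = 0.0024)), and 1 fell, Dpp4 (-0.51 (adjusted p = 0.0235)), while none passed in C57BL/6, where Cxcl3 differed by +1.37 (adjusted p = 0.129). Of all genes 1.93% rose and 2.46% fell with LPS in NOD, and 0.945% rose and 0.868% fell in C57BL/6. Culture raised 7 and lowered 6 of the 19 in NOD, and raised 11 and lowered 4 in C57BL/6, where 41.6% of all genes rose and 30% fell in NOD and 44.6% and 32.3% in C57BL/6. Cxcl3 led these, +7.36 (adjusted p = 2.46e-10) in NOD and +6.31 (adjusted p = 1.56e-07) in C57BL/6, with steady state values below the lower quartile on every array. Ccl1, a ligand of Ccr8, followed (+2.09 (adjusted p = 0.000769) and +2.89 (adjusted p = 1.13e-06)), and it lay below the lower quartile on every C57BL/6 steady state array.

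Of 35 genes that act below chemokine receptors, 32 were measured, and their medians lay near 0 between strains (-0.03 at steady state, -0.06 after PBS and -0.07 after LPS). None was higher in NOD by the test, where 6.87%, 5.43% and 5.21% of all genes were. In the same order 3, 3 and 4 were lower, where 8.35%, 5.28% and 5.43% of all genes were lower. These were led by Rgs1, an inhibitor of G protein signalling, at steady state (-1.39 (adjusted p = 0.0274)), Elmo1, a partner of Dock2 in Rac activation, after PBS (-0.47 (adjusted p = 0.0887)) and Arrb1, an arrestin that shuts receptors off, after LPS (-0.86 (adjusted p = 0.00412)). LPS raised 1 and lowered 6 of them in NOD, led by Rgs2 (-0.86 (adjusted p = 0.0089)), and raised 1 (Pik3cg, +0.68 (adjusted p = 0.0724)) and lowered 1 (Dock2, -0.56 (adjusted p = 0.0747)) in C57BL/6. With culture 19 fell and 6 rose in NOD, and 19 fell and 8 rose in C57BL/6, against 30% and 41.6% of all genes in NOD and 32.3% and 44.6% in C57BL/6. Rgs18 fell the furthest (-4.20 (adjusted p = 1.8e-08) in NOD and -5.02 (adjusted p = 3.12e-11) in C57BL/6), and Rgs16 rose the furthest (+2.94 (adjusted p = 4.1e-07) and +2.68 (adjusted p = 2.23e-09)). Rgs18 lay below the lower quartile on every cultured array, so the size of its fall depends on values near the bottom of the scale.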

How the data were processed

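RNA of sorted cells was amplified and hybridised to Affymetrix Mouse Genome 430 2.0 arrays. The deposited table holds log2 values, which the authors computed by RMA within BRB-ArrayTools, and the version and the background and scaling options are not given in the sources used here. RMA equalises the distributions of the arrays, so a shift common to most genes cannot be seen. Scanner files were not used here. Of 45101 probe sets, 64 controls were left out, and 34945 named 1 gene, 932 several and 9160 none. Gene symbols came from the platform annotation, updated through Entrez identifiers (99.4% matched). Whether probes cover sequence differences between the strains was not analysed here.

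The members and lists were chosen with earlier results of these data known. All 40 members are named, and array values are given for up to 5 called members with the largest difference in each comparison and for Ccl2 and Ccr2. Tests were made with limma 3.58.1 in R 4.3.3 (lmFit and eBayes) on the arrays of the groups compared, with no filter on dim probe sets and no block, two-sided, with Benjamini-Hochberg adjustment over 45037 probe sets and calls at 0.1, the false discovery level of the study's methods. The multivariate permutation test of those methods was not run. Interactions were fitted on 4 groups. The steps were tested on simulated data. The number of arrays limits the precision.

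Replicate numbers of the labels were taken as pairs where residuals of same-numbered arrays correlated at over 0.1 in every pair. That held for the strain comparisons (0.109 to 0.433 at steady state, 0.137 to 0.32 after PBS, 0.114 to 0.345 after LPS) and for LPS (0.241 to 0.487 in NOD, 0.259 to 0.423 in C57BL/6). Culture comparisons share 2 numbers and were not taken as paired. Their correlations were 0.0996 to 0.277 in NOD, where the lowest fell just short of the limit, and -0.0328 to 0.177 in C57BL/6. The highest correlation between 2 arrays was 0.997, with no 2 arrays alike. Alternatives were a threshold of 0.05, dropping the 50% of probe sets with the lowest means, fitting all 22 arrays at once, centring arrays on their medians, the replicate block, averaging the probe sets of a gene and leaving out each array. Promoter sequences are from RefSeq, GRCm38.p6.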

Additional observations from a re-analysis of the deposited data

Results flagged for a closer look

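Of 160 sets of 4 arrays, 1 for each member in each group of 4, 9 held an array whose distance to its nearest neighbour exceeded the 95% critical value of the Dixon ratio, and chance gives about 1 in 20. Ccl11 read 6.86 on NOD LPS replicate 1, above the 6.56 to 6.57 of the other 3 arrays. Ccl17 read 10.74 on C57BL/6 steady state replicate 4, below the 11.07 to 11.13 of the other 3 arrays. Ccl20 read 8.11 on NOD LPS replicate 2, above the 7.25 to 7.31 of the other 3 arrays. Ccl24 read 9.49 on C57BL/6 PBS replicate 4, below the 10.21 to 10.33 of the other 3 arrays. Cxcl9 read 13.06 on C57BL/6 PBS replicate 3, below the 13.65 to 13.74 of the other 3 arrays. Ccr2 read 10.28 on C57BL/6 PBS replicate 4, above the 9.75 to 9.82 of the other 3 arrays. Ccr3 read 7.99 on C57BL/6 PBS replicate 3, above the 6.89 to 7.01 of the other 3 arrays. Ccr3 read 6.84 on NOD PBS replicate 3, above the 6.51 to 6.56 of the other 3 arrays. Xcr1 read 7.28 on C57BL/6 PBS replicate 3, above the 6.62 to 6.67 of the other 3 arrays.

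The culture difference (PBS minus steady state) was not the same in NOD and C57BL/6 DCs by the interaction test in limma for 16 members, of which 11 were lost once replicate number was blocked (adjusted p = 0.102 to 0.626). The blocked fit draws only on arrays whose number recurs in both conditions of their strain, so fewer arrays inform it. The values that follow are from the fit without the block. NOD minus C57BL/6 culture difference, in log2, was positive for Ccl2 (+0.81, adjusted p = 0.0235), Ccl3 (+1.04, adjusted p = 0.0863), Ccl4 (+1.24, adjusted p = 0.0278), Ccl5 (+0.69, adjusted p = 0.00423), Ccl7 (+1.21, adjusted p = 0.000813), Ccl12 (+0.75, adjusted p = 0.0969), Cxcl1 (+1.88, adjusted p = 0.0392), Cxcl2 (+1.81, adjusted p = 0.051), Cxcl10 (+0.62, adjusted p = 0.0275), Ccr1 (+1.40, adjusted p = 0.000256) and Cx3cr1 (+0.84, adjusted p = 0.0301). It was negative for Ccl24 (-1.17, adjusted p = 0.0132), Cxcl9 (-2.41, adjusted p = 0.000609), Ccr2 (-1.0, adjusted p = 0.0136), Ccr6 (-1.03, adjusted p = 0.0308) and Cxcr4 (-0.95, adjusted p = 0.00359). For Ccr1 the strains moved in opposite directions, +0.59 in NOD and -0.82 in C57BL/6, both past the threshold on the probe set used, while the second probe set gave +1.68 (adjusted p = 1.64e-05) and +0.21 (adjusted p = 0.267). For Ccr6 the values were -0.77 and +0.27, of which the first passed.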

How the results depend on the processing

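Counts of called members stayed within 1.5 times the reported count under the alternatives tried, with 3 exceptions. For LPS in NOD the replicate block gave 16 in place of 9. For LPS in C57BL/6, in place of 6, the block gave 11, 1 fit of all 22 arrays gave 10 and a threshold of 0.05 gave 3. For the strain by culture interaction the block gave 6 in place of 16, with 5 members in common, where the labels do not say that numbers pair the arrays. Only arrays with a same-numbered partner in their strain inform that blocked fit. The share of all genes that passed with the block is not given, and the causes were not tested. In the paired comparisons the block gave 23 at steady state, 15 after PBS and 12 after LPS, and Cxcr6 at steady state and Cx3cl1 after LPS were the calls lost. Culture counts under the block were 37 in NOD and 34 in C57BL/6, with Ccl11 lost in both, Cxcl13 lost in NOD and Ccr3 lost in C57BL/6, and with Ccr3 gained in NOD and Cxcl1 in C57BL/6, and the strain by LPS interaction stayed at 0. Without 1 array the counts ranged over 15 to 19 at steady state, 10 to 11 after PBS, 8 to 11 after LPS, 6 to 10 and 2 to 7 for LPS in NOD and C57BL/6, 37 to 38 and 34 to 36 for culture, and 12 to 17 for the culture interaction. Cxcl14 with culture in NOD turned sign with the mean over probe sets (-0.045, adjusted p = 0.804). Values near the lower quartile (Cxcl5 at steady state) and near the top of the scale (Ccl2, Ccl3, Ccl5 and Cxcl10 in culture) limit the size of a difference that these arrays can show.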
